A study of Mus musculus with 2 samples.

Results

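Brown adipocyte identity and heat production were followed through 10 genes in cultured adipose precursor cells of the white and the brown depot. The genes were Ucp1, Cidea, Elovl3, Dio2, Prdm16, Ppargc1a, Ppargc1b, Ppara, Esrrg and Irf4. They were taken by name from a fixed list that was chosen with earlier results of these data known. All 10 were among the 32285 genes of both matrices. Stromal vascular cells came from subcutaneous white adipose tissue (WAT) and interscapular brown adipose tissue (BAT) of C57/BL6J pups of both sexes at P0, the day of birth, and were grown to confluency in 4 days before single-cell RNA sequencing. The WAT was digested for 35 minutes and the BAT for 50 minutes. Pups were pooled and each depot gave 1 library, so depot, digestion time, culture and library cannot be told apart, no value has a replicate and no test could be made. All cells were taken before differentiation.

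Brown adipocytes burn fuel to make heat. Uncoupling protein 1, encoded by Ucp1, lets protons leak back across the inner mitochondrial membrane, and its transcription is driven by cold through beta-adrenergic receptors and cAMP. Upstream stand transcription regulators such as PRDM16, coactivators of the PGC-1 family, and nuclear receptors of the PPAR and ERR families, which switch on fatty acid oxidation and mitochondrial genes.

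The WAT library held 5261 captured cells and the BAT library 7009, with medians of 26239 and 26411 unique molecular identifiers (UMIs, counted RNA molecules) per cell. After the quality limits of the study 4407 and 6137 cells remained, of which 4332 white and 5962 brown cells were precursors with 122939077 and 169647693 UMIs in all. The libraries shared 9 cell barcodes. The study marked precursors by Pdgfra, Pdgfrb and Dlk1, so these genes describe the label and do not test it. A UMI of Pdgfra was found in 86.3% of white and 78.8% of brown precursors and one of Dlk1 in 93.5% and 86.7%. Dlk1 was also found in 17.6% of brown glial, 49.3% of brown myeloid and 53.1% of brown myogenic cells. The 8 mature adipocyte markers (Adipoq, Plin1, Cidec, Plin4, Lipe, Cfd, Lep and Pck1) summed to 4.87 CPM (UMIs of a gene per 1000000 UMIs of its group) in white precursors, with 7 of 8 read and Pck1 at 0, and to 7.06 CPM in brown precursors, with 8 of 8 read. Markers of other cells summed, in white and brown precursors, to 9.91 and 14.9 CPM (myeloid), 4.42 and 5.11 CPM (endothelial) and 104 and 88.6 CPM (mural). Glial markers summed to 23.2 and 19.5 CPM, of which S100b alone gave 19.5 and 16.0 CPM. Of the 6 myogenic markers Myod1, Myf5, Pax7 and Myog were at 0 in white precursors, and Des was at 2.94 CPM in white and 1.60 CPM in brown precursors. The depots were also marked by position: Hoxc10, a homeobox gene of the posterior body, was at 90.9 CPM in white and 0.0648 CPM in brown precursors, and Zic1, a patterning factor of interscapular fat, at 0.00813 and 26.3 CPM. Levels below are CPM of summed UMIs with an exact 95% Poisson interval, and intervals of shares are exact binomial (Clopper-Pearson). Both cover counting error only.

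The upstream sequence of 4 of the genes is shown because the results turn on them: Ucp1 and Dio2, effectors that were nearly unread, and Prdm16 and Ppargc1a, regulators that were read in both depots. Each is the 250 bases before the transcription start, 5′ to 3′ on the gene's strand, from RefSeq on GRCm38.p6. Ucp1 lies at chr8:83290098-83290347 on the plus strand, Dio2 at chr12:90739039-90739288, Prdm16 at chr4:154636874-154637123 and Ppargc1a at chr5:51567726-51567975, these 3 on the minus strand. Capitals mark matches, on either strand, to TATAAA (the TATA box), CCAAT, TGACGTCA (the full cAMP response element), AGGTCA (the core site of nuclear receptors) or TCAAGGTCA (the extended site of ERR receptors, which contains AGGTCA).
Ucp1: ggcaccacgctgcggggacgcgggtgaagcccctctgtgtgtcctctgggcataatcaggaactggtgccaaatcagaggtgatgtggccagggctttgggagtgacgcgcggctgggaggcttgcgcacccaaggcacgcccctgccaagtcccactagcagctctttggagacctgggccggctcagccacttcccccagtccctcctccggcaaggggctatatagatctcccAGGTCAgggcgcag
Dio2: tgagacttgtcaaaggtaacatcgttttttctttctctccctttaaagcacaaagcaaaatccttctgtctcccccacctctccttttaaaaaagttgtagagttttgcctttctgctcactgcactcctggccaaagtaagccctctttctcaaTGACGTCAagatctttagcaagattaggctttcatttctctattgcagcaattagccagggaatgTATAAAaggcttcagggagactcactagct
Prdm16: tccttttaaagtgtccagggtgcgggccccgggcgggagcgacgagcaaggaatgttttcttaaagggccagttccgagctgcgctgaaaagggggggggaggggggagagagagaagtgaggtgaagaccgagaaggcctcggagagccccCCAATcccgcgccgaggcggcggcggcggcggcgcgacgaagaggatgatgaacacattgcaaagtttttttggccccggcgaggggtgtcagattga
Ppargc1a: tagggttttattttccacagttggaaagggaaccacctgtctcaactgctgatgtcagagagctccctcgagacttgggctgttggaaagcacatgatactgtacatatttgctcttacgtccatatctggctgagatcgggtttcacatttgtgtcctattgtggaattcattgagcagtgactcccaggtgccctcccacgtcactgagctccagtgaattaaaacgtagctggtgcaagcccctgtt

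In the Dio2 window TGACGTCA began 95 bases before the start and TATAAA 30 bases before it. In the Ucp1 window AGGTCA began 14 bases before the start, and in that of Prdm16 CCAAT began 98 bases before it. The Ppargc1a window held none of these letter strings. Among 32851 windows of all genes, 1.55% held TGACGTCA, 12.4% TATAAA, 14.0% AGGTCA, 33.8% CCAAT and 0.387% TCAAGGTCA. The table also held 1 window for Irf4, in which TATAAA began 26 bases before the start, 1 for Ppara with no match, and 4 for Esrrg, of which the first held TATAAA and the fourth CCAAT. It gave no window for Cidea, Elovl3 or Ppargc1b. The GC content was 64.8% for Ucp1, 41.6% for Dio2, 62.4% for Prdm16 and 48.0% for Ppargc1a, against a median of 52.4% over all windows. A match is a string of letters and not a bound site, and no match says only that these letters are not in the window.

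In precursor cells the 10 genes fell into 5 that gave 168 to 3974 UMIs in either library and 5 that gave 0 to 13. Over 3 UMIs, the limit set for calling a gene detected, were found for 8 of 10 in white and 7 of 10 in brown precursors, and the share over all listed genes was 61.6% and 63.8%. Ucp1 gave 4 UMIs in white and 2 in brown precursors, each from a different cell. That was 0.0325 CPM (0.00887 to 0.0833) in the white library, beside 0.0118 CPM (0.00143 to 0.0426) in the brown library. The brown over white log2 ratio was -1.46 with an interval from -4.93 to 1.34, so no depot difference was detectable at this depth.

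The other effectors were as scarce. Cidea, a lipid droplet protein of brown adipocytes, gave 4 UMIs in each depot, 0.0325 CPM (0.00887 to 0.0833) for the white against 0.0236 CPM (0.00642 to 0.0604) for the brown precursors. Elovl3, which elongates fatty acids in cold-exposed brown fat, gave 6 UMIs in white and 13 in brown precursors, all from different cells. White precursors were at 0.0488 CPM (0.0179 to 0.106) and brown precursors at 0.0766 CPM (0.0408 to 0.131), a log2 ratio of 0.65 with an interval from -0.84 to 2.33. Dio2, the deiodinase that activates thyroid hormone, gave 0 UMIs in white precursors, which allows a level of up to 0.0244 CPM, and 1 UMI in brown precursors. Irf4, a transcription factor induced by fasting and cold that acts with PGC-1 alpha, was as scarce as these effectors, with 3 UMIs in white and 2 in brown precursors. In none of these 5 genes did a kept precursor cell hold more than 1 UMI.

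The few UMIs were scattered over clusters. Among the 1999 white and 1999 brown precursors with an authors' cluster label, Ucp1 was read once each in wAPC 2, bAPC 3 and bAPC 4 (APC, adipocyte precursor cells). Cidea was read in 2 cells of wAPC 2 and 1 each of bAPC 1 and bFAPLs (fibroadipogenic progenitor-like cells), and Dio2 in 1 cell of bAPC 5. Irf4 was read in 1 cell of wAPC 1, and Elovl3 in 1 of wAPC 1, 3 of bAPC 1 and 1 each of bAPC 2 and bFAPLs. None of the 5 gave a UMI in the 674 labelled wCAPs or the 296 labelled bCAPs (committed adipogenic progenitors). With cluster names carried over to the unlabelled cells, the 1524 wCAPs held 2 UMIs of Ucp1, 2 of Cidea and 3 of Elovl3, and the 810 bCAPs held 1 of Irf4. In the cells that should lack Ucp1, 1 of 46 white glial cells held a Ucp1 UMI (2.17%, median 20107 UMIs per cell) and 0 of 29 white myeloid cells did. Among white precursors 0.0923% held one (median 26950), and 1 UMI is too few to set a background for that share. In the brown library 0 of 68 glial cells held one, which allows a share of up to 4.41%, as did 0 of 75 myeloid and 0 of 32 myogenic cells, beside 0.0335% of brown precursors. These cells are too few to set a background for the brown share.

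**Figure D1:**
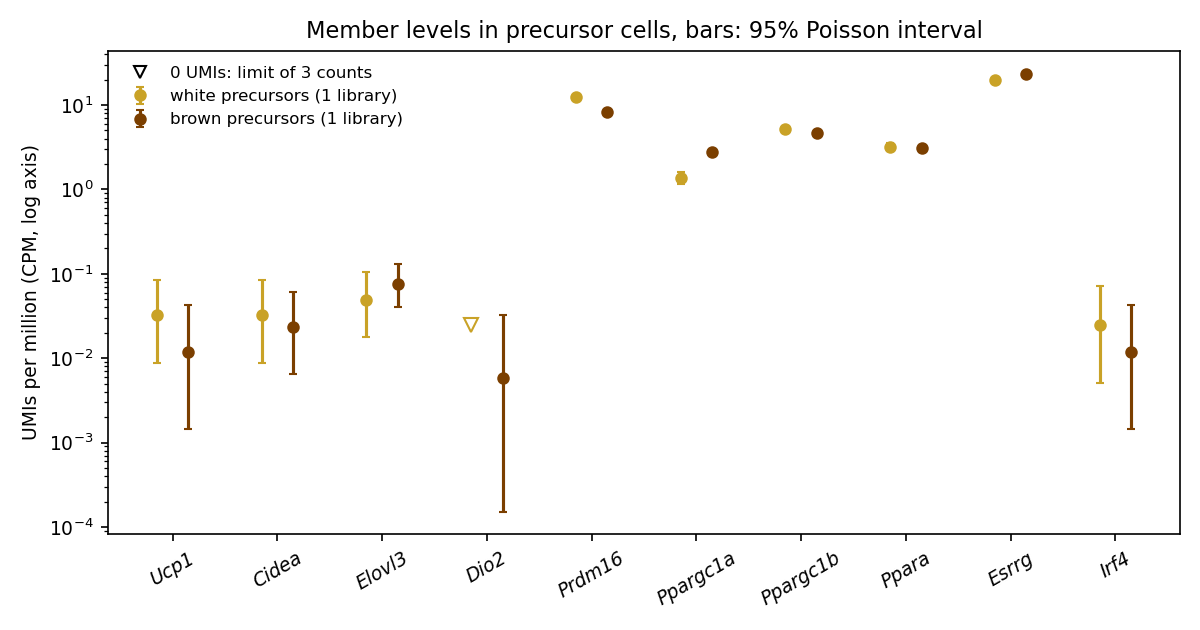
Level of each of the 10 genes (CPM, log axis) in white (yellow) and brown (dark) precursors, 1 library each. Bars are 95% Poisson intervals and the open triangle is the limit of 3 counts for Dio2 in white precursors, which had 0 UMIs. Prdm16, Ppargc1a, Ppargc1b, Ppara and Esrrg lie between 1.37 and 23.4 CPM in both depots, and the others at 0.0766 CPM or below.

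The transcription regulators behaved otherwise. Prdm16, the zinc finger regulator that holds the brown identity, gave 1549 UMIs in white and 1390 in brown precursors. White precursors were at 12.6 CPM (12.0 to 13.2) and brown precursors at 8.19 CPM (7.77 to 8.64), so it was 1.54-fold lower in the brown library. A Prdm16 UMI was found in 24.4% of white and 17.4% of brown precursors, and in 11.0% and 7.43% after each cell was thinned to 10000 UMIs. Of the 32 myogenic cells of the brown library 1 held a Prdm16 UMI (3.12%, median 27282 UMIs). Not all other cells were low: glial cells were at 258 CPM in white and 133 CPM in brown, and white myeloid cells at 15.4 CPM.

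Ppargc1a, which encodes PGC-1 alpha, the coactivator of mitochondrial biogenesis induced by cold, went the other way. It gave 168 UMIs in white and 467 in brown precursors, which put the white precursors at 1.37 CPM (1.17 to 1.59) and the brown ones at 2.75 CPM (2.51 to 3.01). The brown over white ratio was 2.01-fold, a log2 ratio of 1.01 (0.75 to 1.27). A UMI was found in 2.95% of white and 5.92% of brown precursors, 1.20% and 2.28% after thinning, and in 0 of 29 white and 0 of 75 brown myeloid cells (medians of 30076 and 25188 UMIs). Other cell types did hold Ppargc1a. Brown glial cells gave 6 UMIs, 3.97 CPM, brown myogenic cells 7 UMIs, 7.32 CPM, and white glial cells 1 UMI, 0.947 CPM. Of the 5 read genes 1, Ppargc1a, was past 2-fold higher and 0 were lower, where 3.66% of 18271 genes with at least 20 UMIs were past 2-fold higher in brown and 3.32% lower. The ratio lies at the threshold itself: it was 0.97 on the log2 scale after thinning, 0.96 with every cell weighted the same and 1.39 in the labelled cells alone. Most myogenic markers moved with it: of the 4 with at least 20 UMIs 3 were past 2-fold higher in brown precursors. Des was lower, with a log2 ratio of -0.88. In brown precursors Myog, the myogenin gene of differentiating muscle cells, gave 167 UMIs in 2.18% of cells and Myod1 gave 31. The myogenic markers summed to 3.02 CPM in white and 3.21 CPM in brown precursors. Among other markers with at least 20 UMIs, 2 of 5 mature adipocyte, 1 of 8 myeloid, 1 of 6 endothelial and 1 of 6 glial ones were past 2-fold higher in brown. Of 6 mural markers 1 was higher and 3 were lower. The part of any of these in the Ppargc1a ratio was not tested.

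The other coactivator and both nuclear receptors differed little between the depots. Ppargc1b, which encodes PGC-1 beta, a relative of PGC-1 alpha, gave levels of 5.21 CPM (4.82 to 5.63) for white and 4.64 CPM (4.32 to 4.97) for brown precursors. Ppara, the fatty acid sensing receptor PPAR alpha, was at 3.20 CPM (2.89 to 3.53) and 3.06 CPM (2.80 to 3.33), with a log2 ratio of -0.06 (-0.26 to 0.13). Esrrg, the oestrogen-related receptor gamma, which drives oxidative genes, was at 20.1 CPM (19.3 to 20.9) and 23.4 CPM (22.7 to 24.2), 1.17-fold higher in brown. The median log2 ratio of the 5 genes was -0.06, beside -0.04 over all 18271 genes.

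Esrrg was found in 21.5% of white and 25.7% of brown precursors, and in 12.5% and 14.7% after thinning. Of the white precursors 313 held 3 or more UMIs and 29 held 10 or more, with up to 36 in 1 cell, and of the brown ones 496 and 38, with up to 25. The highest 1% of cells held 21.4% of its UMIs in white and 17.6% in brown precursors. That share was 12.7% and 15.0% for Prdm16, of which no kept precursor held 10 UMIs, 18.4% and 18.8% for Ppargc1b and 26.0% and 26.4% for Ppara. For Ppargc1a the highest 1% of cells held 84 of the 168 white and 168 of the 467 brown UMIs. This share rises where fewer cells hold a gene at all, so it does not rank genes of unlike level by how concentrated they are. As a background, 0 of 46 white glial cells held an Esrrg UMI, which allows a share of up to 6.52%, and 2 of 68 brown glial cells did (medians of 20107 and 19494.5 UMIs per cell). Glial cells were the lowest of the other cell types. Esrrg was at 3.55 CPM in white myeloid, 3.42 CPM in brown myeloid and 8.36 CPM in brown myogenic cells.

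The read and unread genes also differed in size. In GENCODE vM21 on GRCm38, Esrrg (ENSMUSG00000026610) spans 606 kb on chromosome 1 (187608791 to 188214885), with 1.02% of it exonic, and Prdm16 (ENSMUSG00000039410) 321 kb on chromosome 4 (154316125 to 154636873). Ppargc1a (ENSMUSG00000029167) spans 113 kb on chromosome 5 (51454250 to 51567726), Ppargc1b (ENSMUSG00000033871) 102 kb on chromosome 18 and Ppara (ENSMUSG00000022383) 67.8 kb on chromosome 15 (85734983 to 85802819). The 5 nearly unread genes span 3.80 to 24.2 kb, among them Ucp1 (ENSMUSG00000031710), with 8.10 kb on chromosome 8 (83290352 to 83298452). The median was 113 kb for the read and 13.9 kb for the unread genes, beside 17.3 kb over 21702 protein-coding genes. The Cell Ranger version used counts intronic reads by default, the matrices do not separate them from exonic reads, and the part of intronic reads in these levels was not tested. Within the span of Prdm16 the annotation holds 3 genes on the opposite strand, and within that of Esrrg 3 on the opposite and 1 on the same strand. None of the same-strand genes was listed in the matrices.

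The authors divided the precursors of each depot into 7 clusters, among them committed adipogenic progenitors (wCAPs in white and bCAPs in brown fat) and fibroadipogenic progenitor-like cells (wFAPLs and bFAPLs). The clusters were built from these same counts and share a library, so the values are given as a description. Of the 5 read genes, 4 were at least 2-fold higher in wCAPs than in wFAPLs (4.56% of 13729 genes with at least 20 UMIs were), and 3 were at least 2-fold higher in bCAPs than in bFAPLs (4.15% of 12804 genes were). None was 2-fold lower in either (3.69% and 3.05% of genes). The median log2 ratio over the 5 genes was 1.64 in white and 1.01 in brown, beside 0.02 and 0.05 over all genes compared.

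In wCAPs Prdm16 was at 18.4 CPM (16.5 to 20.4), against 5.86 CPM (4.22 to 7.92) in wFAPLs, 3.13-fold. In brown fat it was at 14.4 CPM (11.9 to 17.2) in bCAPs and 7.16 CPM (5.38 to 9.35) in bFAPLs, 2.01-fold, with a log2 interval from 0.53 to 1.50, and the log2 ratio was 0.58 after thinning. In both depots the CAPs stood above every other cluster except the 15 labelled differentiating wFAPLs, whose interval, 7.24 to 33.1 CPM, spans both. The remaining white clusters lay between 7.38 CPM in wAPC 3 and 12.4 CPM in wAPC 1, and the brown ones between 5.93 CPM in bAPC 3 and 8.49 CPM in bAPC 1, with overlapping intervals from neighbour to neighbour.

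Ppargc1a was uneven among the brown clusters. It was highest in bAPC 5 with 24 UMIs and 7.43 CPM (4.76 to 11.1) and in bCAPs with 43 UMIs and 5.24 CPM (3.79 to 7.06), which do not differ beyond their intervals. After thinning bAPC 5 was at 4.35 CPM, from 5 UMIs, beside 4.73 CPM in bCAPs, 4.23 CPM in bAPC 4 and 3.96 CPM in bAPC 1, so bAPC 5 no longer led. Ppargc1a was lowest in bFAPLs at 0.796 CPM (0.292 to 1.73) and bAPC 2 at 0.827 CPM (0.397 to 1.52), and bCAPs over bFAPLs was 6.59-fold. In white fat wCAPs held 42 of the 64 UMIs read in labelled cells, at 2.17 CPM (1.56 to 2.93), while wAPC 1 held 8, wAPC 2 held 6, wFAPLs held 5, wAPC 3 held 3 and wAPC 4 held 0. The white ratio of CAPs over FAPLs was 3.11-fold with a wide log2 interval, from 0.30 to 3.33. The FAPLs of both depots were low, at 0.697 CPM in white and 0.796 CPM in brown.

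Esrrg ran from 32.4 CPM (29.95 to 35.08) in wCAPs to 6.55 CPM (4.82 to 8.72) in wFAPLs, 4.95-fold, and from 36.5 CPM (32.4 to 40.8) in bCAPs to 9.02 CPM (7.01 to 11.4) in bFAPLs, 4.04-fold. The white clusters wAPC 1 to wAPC 4 lay between 15.3 and 18.6 CPM and did not differ beyond their intervals, and the 15 labelled differentiating wFAPLs held 0 UMIs, which allows a level of up to 6.29 CPM. The brown ones were spread further: bAPC 4 was at 39.3 CPM (33.8 to 45.4), at the level of bCAPs, bAPC 1 at 29.4 CPM and bAPC 3 at 25.6 CPM, whereas bAPC 2 was at 16.4 CPM and bAPC 5 at 10.5 CPM (7.29 to 14.7), close to bFAPLs. In bAPC 5 the receptor was low where Ppargc1a was high: over bFAPLs, 1 of the 5 read genes, Ppargc1a, was at least 2-fold higher (3.47% of 12120 genes were) and 0 were lower (4.60%). The share of cells with an Esrrg UMI ran from 8.59% in wFAPLs to 28.6% in wCAPs and from 12.5% in bFAPLs to 32.8% in bCAPs, and after thinning from 5.08% to 16.9% and from 5.02% to 23.0%.

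Ppargc1b and Ppara were not 2-fold higher in the CAPs of both depots. Ppargc1b gave 5.67 CPM (4.66 to 6.84) in wCAPs against 2.51 CPM (1.49 to 3.97) in wFAPLs, 2.26-fold, but 4.14 CPM (2.87 to 5.79) in bCAPs and 4.25 CPM (2.90 to 5.99) in bFAPLs. These ratios were unstable: with carried-over labels the white log2 ratio was 0.86 and after thinning the brown one was 1.40. Its highest cluster was wAPC 4 with 25 UMIs in 62 cells, 14.7 CPM (9.53 to 21.7), above the interval of every other cluster with 50 or more cells. Of these 62 cells 16 held a UMI and 1 of them held 7, which the interval does not take into account. After thinning the cluster was at 14.5 CPM, from 9 UMIs. Ppara lay between 1.18 CPM in wAPC 4 and 4.07 CPM in bAPC 1, and its log2 ratio of CAPs over FAPLs was 0.53 (-0.22 to 1.34) in white and 0.15 (-0.68 to 0.99) in brown. A difference of 2-fold in Ppara between CAPs and FAPLs is outside the brown interval and inside the white one.

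**Figure D2:**
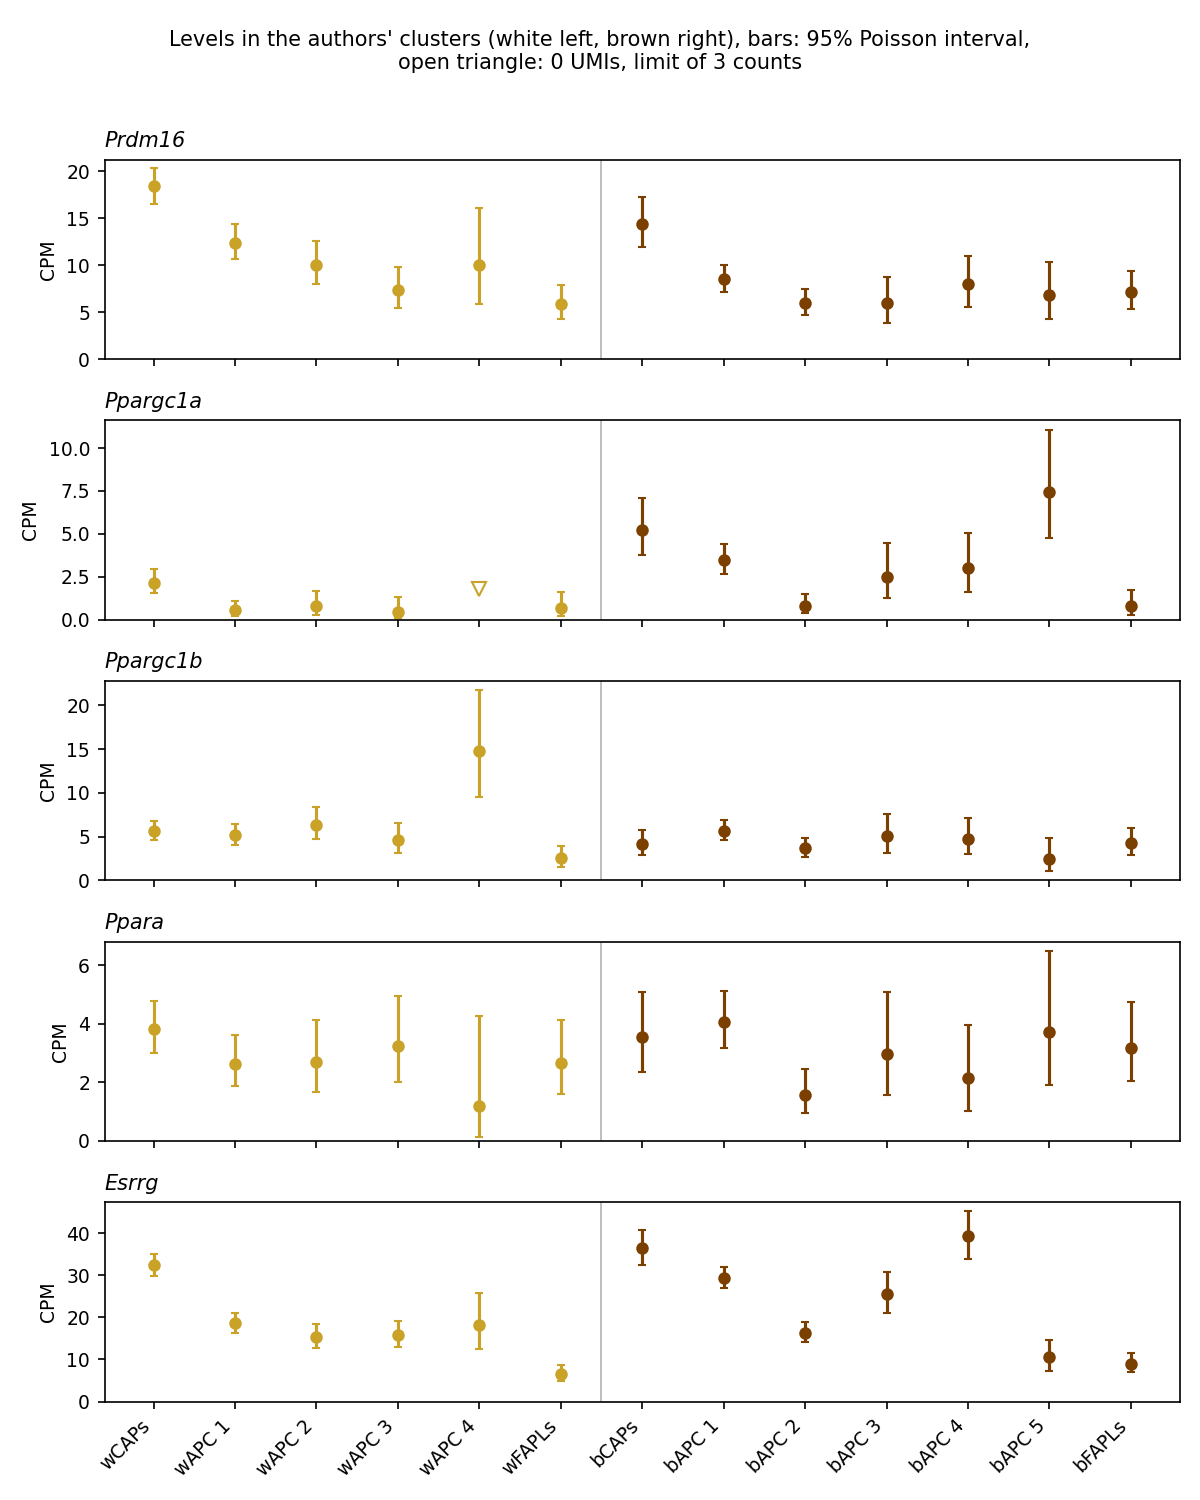
Level of the 5 read genes (CPM) in the authors' clusters with 50 or more labelled cells, white on the left and brown on the right, with 95% Poisson intervals. Prdm16 and Esrrg are lowest in wFAPLs among the white clusters, Ppargc1a peaks in bAPC 5 and bCAPs, and Ppargc1b stands out in wAPC 4 at 14.7 CPM. The open triangle marks 0 UMIs at the limit of 3 counts.

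Set against each other across depots, the CAPs differed past 2-fold in 1 gene and the FAPLs in none. In bCAPs over wCAPs, 1 of 5 genes was at least 2-fold higher (4.22% of 13801 genes were) and 0 were lower (4.79%). That gene was Ppargc1a, 2.42-fold higher with a log2 ratio of 1.28 (0.63 to 1.92), while Prdm16 was 1.28-fold lower and Esrrg had a log2 ratio of 0.17 (-0.04 to 0.37). In bFAPLs over wFAPLs, 0 of the 4 genes with 20 UMIs or more were past 2-fold (1.77% of 12623 genes were higher and 2.38% lower). Their log2 ratios ran from 0.26 for Ppara to 0.76 for Ppargc1b (-0.12 to 1.68), and Ppargc1a, with 6 and 5 UMIs, was left out. In bAPC 1 over wAPC 1, clusters that share only a number, Ppargc1a was again the 1 gene 2-fold higher (5.15% of 13905 genes were), at 3.45 CPM against 0.557 CPM, and 0 were lower (1.98%). Mature adipocyte markers were higher in the CAPs than in the FAPLs. They summed to 8.05 CPM in wCAPs and 2.23 CPM in wFAPLs and to 9.26 and 2.65 CPM in bCAPs and bFAPLs. Read were 5 of 8 in either CAP cluster and 2 of 8 in either FAPL cluster. In brown fat they were not particular to bCAPs, since bAPC 1 was at 9.39 CPM with 6 of 8 read. Mural markers moved the other way, with 47.9 and 79.6 CPM in wCAPs and bCAPs and 278 and 254 CPM in wFAPLs and bFAPLs. Myeloid markers summed to 7.17 CPM in wCAPs and 42.0 CPM in wFAPLs, with 4 of the 6 that had 20 UMIs past 2-fold lower, and to 10.7 and 14.9 CPM in bCAPs and bFAPLs. The sum of endothelial markers was lower in the CAPs too, at 3.87 against 10.04 CPM in white and 0.853 against 5.97 CPM in brown fat. The white markers went both ways: of the 2 with 20 UMIs 1 was 2-fold higher and 1 lower in wCAPs. In brown fat the 1 with 20 UMIs was lower in bCAPs. The part of any of these in the ratios was not tested.

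**Figure D3:**
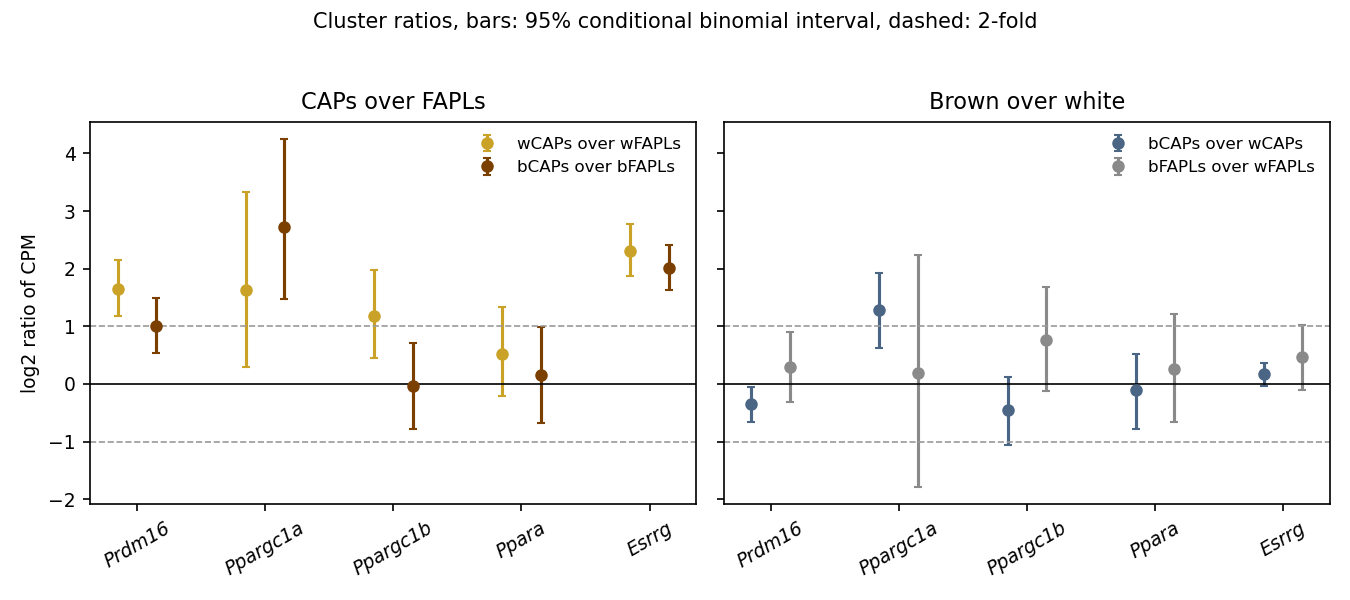
Log2 ratio of CPM for the 5 read genes, CAPs over FAPLs within each depot (left) and brown over white for each of these clusters (right), with 95% conditional binomial intervals and dashed lines at 2-fold. Esrrg lies above 2-fold in both depots on the left, at 2.31 in white and 2.01 in brown, and on the right Ppargc1a in CAPs is the one point past 2-fold, at 1.28.

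Over the 13 clusters with at least 50 labelled cells, the gene whose log2 level was most like that of Esrrg, among 9159 genes with at least 1000 UMIs, was Pparg, the master regulator of adipocyte differentiation, with a Pearson r of 0.93. Pparg itself was at 92.5 CPM in wCAPs and 9.48 CPM in wFAPLs, and at 92.8 and 17.0 CPM in bCAPs and bFAPLs. The gene most like Prdm16 was Gpam, an enzyme of triglyceride synthesis, with r of 0.85. For Ppargc1a these were Hoxb3 (0.92), Cemip2 and Irs1, for Ppargc1b Rest (0.93), Smurf1 and Mrc2, and for Ppara Sil1 (0.88), Arhgap11a and Tcf7l2. Between members the r ran from -0.47 for Ppara and Ppargc1b to 0.61 for Ppara and Ppargc1a. The clusters share libraries and were chosen by their expression, so these values are a description.

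Most single cells held none or 1 of the 10 genes. Of the white precursors 49.4% held none, 35.7% held 1, 12.5% held 2 and 2.49% held 3 or more, and of the brown precursors 50.3%, 34.9%, 12.2% and 2.57%. The most in any kept precursor was 5. Among wCAPs 38.3% held none and among wFAPLs 69.5%, and in brown fat 39.5% of bCAPs and 63.8% of bFAPLs. After thinning 64.2% of wCAPs, 85.9% of wFAPLs, 62.5% of bCAPs and 82.1% of bFAPLs held none.

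Other cell types in the same libraries carried some of these genes at higher levels than the precursors. The glial cells (46 white and 68 brown) held Sox10 and Cdh19 and stood apart by Prdm16, which gave 273 UMIs, 258 CPM (229 to 291), in white glial cells and 201 UMIs, 133 CPM (115 to 153), in brown ones. That was 20.5-fold and 16.2-fold above the precursors of the same library. A Prdm16 UMI was found in 91.3% of white and 85.3% of brown glial cells, and in 82.6% of the white ones after thinning. Of the 5 read genes Prdm16 alone was 2-fold higher in glial cells of either depot, where 13.9% of genes with at least 20 UMIs in white and 14.0% in brown were.

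Esrrg was nearly unread in the same cells. With 0 UMIs in white glial cells it was at least 7.07-fold lower than in white precursors, taking 3 counts as the limit over the group, and with 2 UMIs in brown glial cells its log2 ratio to brown precursors was -4.15 (-7.19 to -2.29). Lower by 2-fold or more were 2 of 5 read genes in white glial cells (11.4% of genes were), Esrrg and Ppargc1b, and 3 of 5 in brown glial cells (11.3%), these and Ppara, of which Ppargc1b and Ppara rest on 1 or 2 UMIs and have intervals that include no difference.

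Ppargc1b was higher in myeloid and myogenic cells. The 29 white myeloid cells were at 30.8 CPM (20.1 to 45.1) and the 75 brown ones at 20.1 CPM (14.4 to 27.2), 5.90-fold and 4.32-fold above precursors. The 32 myogenic cells of the brown library were at 24.0 CPM (15.2 to 36.1), 5.18-fold above. In the myeloid cells it was the one read gene past 2-fold higher (15.6% of genes were in white, 14.5% in brown). Lower by 2-fold or more in white myeloid cells was 1 of 5 read genes, Esrrg, 5.66-fold from 3 UMIs (16.4% of genes were). In brown myeloid cells these were 2 of 5 (18.8%), Esrrg at 6.84-fold and Prdm16 at 2.09-fold, and in myogenic cells the same 2 (18.3%), with 2.80-fold for Esrrg and 7.84-fold, from 1 UMI, for Prdm16. Ppargc1a was read in 0 myeloid cells of either depot, but in myogenic cells it was at 7.32 CPM (2.94 to 15.1), from 7 UMIs, and was past 2-fold higher there together with Ppargc1b (11.3% of genes were). The myogenic cells held Myod1, Myog, Des and Chrna1 in every cell. None of these cells enters the precursor sums.

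**Figure D4:**
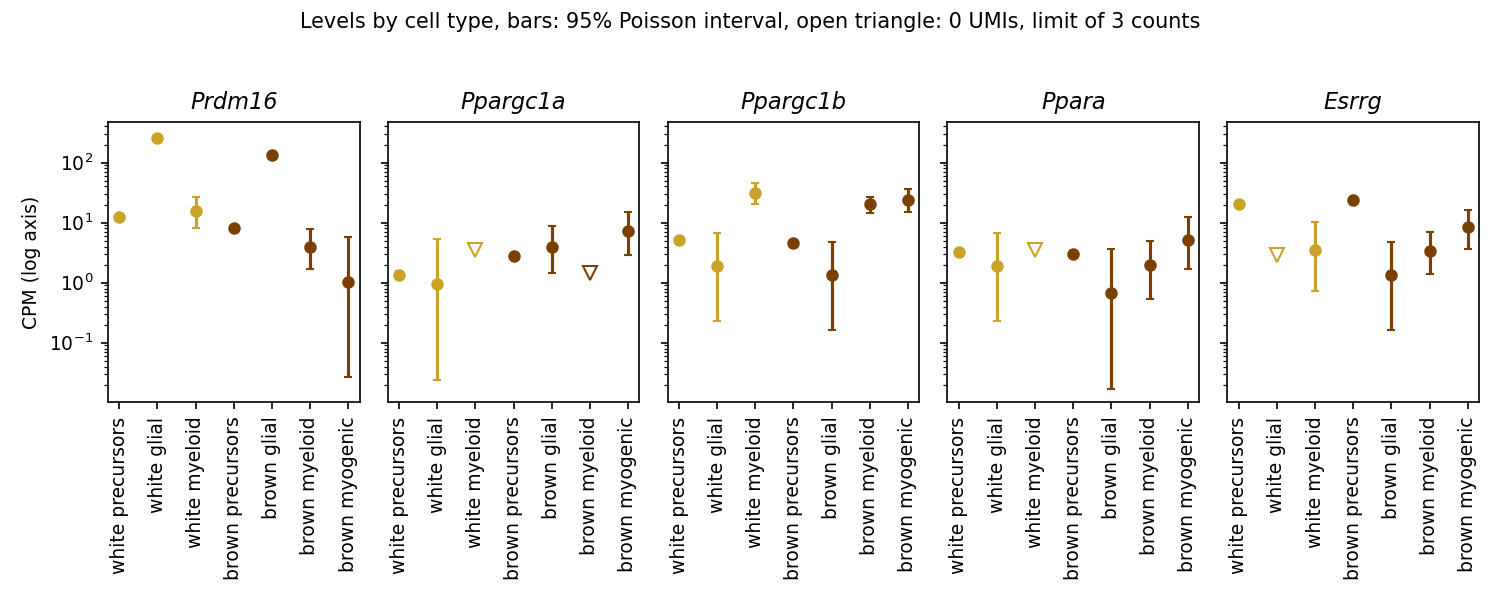
Level of the 5 read genes (CPM, log axis) in precursors, glial, myeloid and myogenic cells of the white (yellow) and brown (dark) library, with 95% Poisson intervals and open triangles for 0 UMIs at the limit of 3 counts. Prdm16 is highest in glial cells, at 258 and 133 CPM, Ppargc1b is higher in myeloid and myogenic cells than in precursors, and Esrrg is highest in precursors.

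Ucp1 and Cidea were not absent from the libraries, but most of their UMIs lay in cells that the quality limits removed. Over all captured cells Ucp1 gave 11 UMIs in the white and 16 in the brown library, and Cidea 27 and 28. In the white library 1 cell held 6 of the Ucp1 and 19 of the Cidea UMIs, and in the brown library 1 cell held 13 and 21. These were 54.5% and 81.2% of all Ucp1 and 70.4% and 75.0% of all Cidea UMIs, and no other captured cell of either library held both genes. The white cell had 22203 UMIs with 13.7% from mitochondrial genes and the brown cell 11318 with 22.1%, both above the 5% limit of the filter, and neither held a UMI of Pdgfra, Dlk1 or Col1a1.

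Both cells held other genes of the brown programme. The white one also gave 9 UMIs of Ppargc1a, 15 of Ppargc1b, 9 of Esrrg and 3 of Prdm16, with 28 of Cox8b and 26 of Cox7a1, subunits of the respiratory chain typical of brown adipocytes. The brown one gave 16 UMIs of Esrrg, 6 of Prdm16, 5 of Ppargc1b and 3 of Ppargc1a, with 39 of Cox8b and 26 of Cox7a1. In kept precursors Cox8b gave 2 UMIs in the white and 6 in the brown library. Elovl3 and Dio2 gave 0 in both cells.

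They belonged to a small set of captured cells with at least 5 of the 8 mature adipocyte markers, 4 in the white and 10 in the brown library, a minimum chosen after the cells had been seen. All 4 white and 9 of the 10 brown ones were outside the filter, with mitochondrial shares from 5.75% to 22.1%. In the other 12 of these cells Ucp1 was at 0 and Cidea gave 0 to 2 UMIs. Adipoq and Cfd were read in most of them, which follows from the choice of cells, since both are among the 8 markers. Fabp4, which is not among the 8, was read in most of them too. Cox8b gave 0 to 29 UMIs in these 12, Cox7a1 0 to 7 and Ppargc1a 0 to 5, so Cox8b was not particular to the cells with Ucp1. The 4 white cells together held 15 UMIs of Ppargc1a and the 10 brown cells 21, or 216 CPM (121 to 356) and 109 CPM (67.8 to 167). With a minimum of 4, 6 or 7 markers the same 6 and 13 Ucp1 UMIs were included, and with all 8 the set of 1 white and 2 brown cells held 0.

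**Figure D5:**
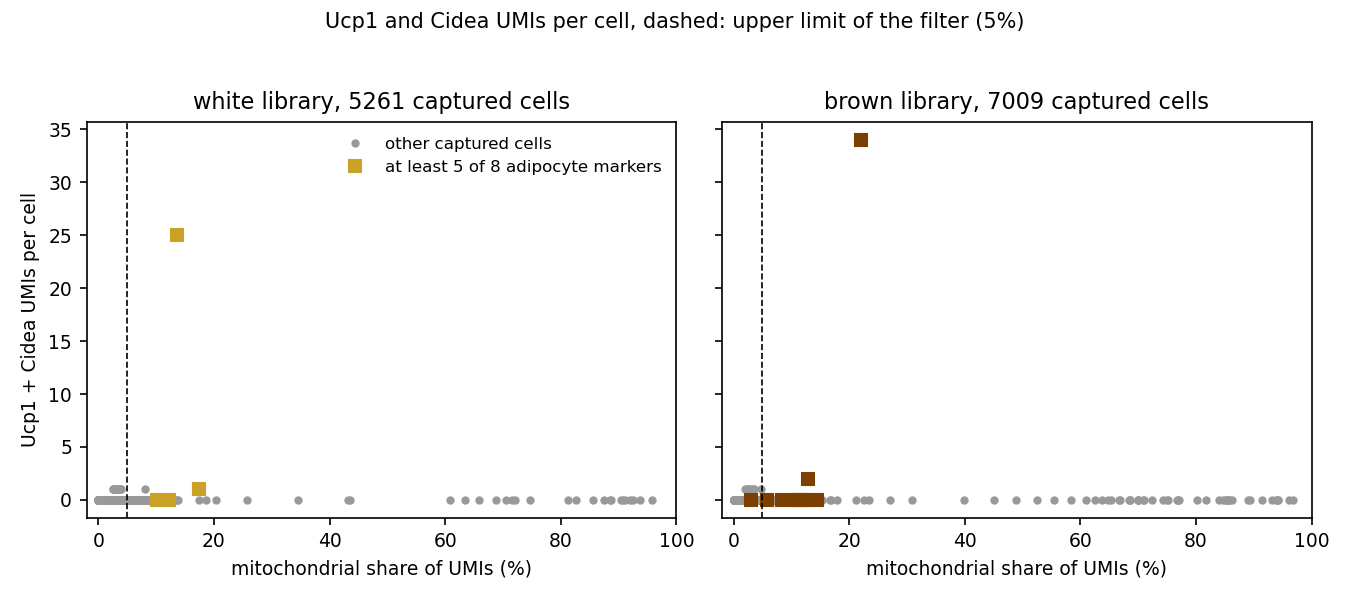
Sum of Ucp1 and Cidea UMIs in each captured cell against its mitochondrial share (%), for the white (left) and brown (right) library, with the 5% upper limit of the filter as a dashed line. Squares are cells with at least 5 of 8 mature adipocyte markers. The white cell with 25 UMIs and the brown cell with 34 lie right of the limit, and every other cell holds 2 or fewer.

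Further genes of the pathway were read in the precursors, in lists made with earlier results known. Of 18 further regulators of brown identity, 17 had over 3 UMIs in white and 18 in brown precursors, and 3 were at least 2-fold higher and 1 lower in brown. Over all genes 61.6% and 63.8% had over 3 UMIs, and 3.66% were 2-fold higher and 3.32% lower in brown, which is the background of each list below. Zic1 was the most unequal of them, and Rxrg, a retinoid receptor, was at 0.211 CPM in white and 0.0295 CPM in brown precursors. The highest were Nfia, at 389 and 252 CPM, and Ebf2, a factor that marks brown precursors, at 83.7 and 167 CPM with a log2 ratio of 0.99. Of 17 listed heat production and mitochondrial genes, 14 and 15 had over 3 UMIs and 2 of the 14 with at least 20 UMIs were 2-fold higher in brown (3.66% of all genes were): Pm20d1, with 6 and 25 UMIs, and Ryr2, the calcium release channel, at 0.512 and 1.26 CPM. Ckb, the creatine kinase of the futile creatine cycle, was at 67.5 and 127 CPM and Atp2a2, the calcium pump SERCA2, at 181 and 152 CPM.

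Receptors that relay the thermogenic signal were read as well. Of 13 listed, 12 had over 3 UMIs in white and 13 in brown precursors, and 2 of the 12 with at least 20 UMIs were 2-fold higher and 1 lower in brown, beside 3.66% and 3.32% of all genes. Adrb1, the beta-1 adrenergic receptor, was at 1.10 CPM in white and 3.80 CPM in brown precursors, 3.46-fold higher, and Ghr, the growth hormone receptor, at 392 and 161 CPM. Of 8 beige markers 0 were 2-fold higher and 4 lower in brown, with Tbx1 at 2.07 and 0.136 CPM and Shox2 at 69.6 and 29.6 CPM. Of 10 repressors and brakes of the programme, all 10 were read in both depots and 0 were past 2-fold either way, with Nrip1, the corepressor RIP140, at 165 and 92.4 CPM and Zfp423, which restrains the brown programme, at 27.4 and 44.2 CPM. Of 11 mature adipocyte genes 2 of the 9 with at least 20 UMIs were higher in brown, Adipoq at 0.122 and 0.472 CPM and Cfd at 0.0895 and 0.277 CPM, and of 8 white adipocyte genes 2 of the 6 with at least 20 UMIs were lower, Hoxc9 and Hoxc10.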

How the data were processed

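Counts of UMIs per gene and cell were deposited by the authors as made by Cell Ranger 7.0.1 (10x 3′ v3.1, GRCm38), without normalization. Each depot had 1 library, so no test was made. The study's limits were applied again: over 3900 and under 7700 genes (genes found in at least 3 cells), 6000 to 60000 UMIs and 1.7 to 5% mitochondrial UMIs. The number of brown cells left differs from the one that the study states. Cluster names are the authors'. The list of them used here is cut short at 1999 precursors per depot, and the names of further cells were not used here. Glial, myeloid and myogenic names, and cluster names in an alternative, were given to unlabelled cells by the majority of their 15 closest labelled cells in 10 principal components, with cell cycle scores from Seurat 5.3.0 gene lists. Held-out cells got their cluster back in 89.5% of white and 83.8% of brown cases. The 8 labelled myogenic cells were too few for this check. Doublets were not called.

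UMIs were summed over cells and given as CPM. Ratios used conditional binomial intervals, were computed for all genes, and counted as past 2-fold among genes with at least 20 UMIs. With a count of 0 the limit is 3 counts. With 0 UMIs in a group no ratio was given where that limit lay past the other group's level. The interval procedures were tested on simulated counts that carry counting error only. The simulation lacks the crowding of UMIs in few cells, so it does not cover that spread. The 10 genes and the lists around them were chosen with earlier results of these data known. From each list the 2 genes highest in brown precursors and the 2 with the largest ratio were eligible to be named, and for each gene with 100 UMIs the 3 most alike over clusters. Pparg, Cox7a1, Cox8b and the genes of the removed cells were named after their values were seen. Gene spans are from GENCODE vM21, and 32235 of 32285 listed genes matched. Python 3.11.15, numpy 2.4.6, scipy 1.17.1 and pandas 2.3.3 were used.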

Additional observations from a re-analysis of the deposited data

Results flagged for a closer look

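Cells that the quality limits had removed, and that the main comparisons leave out, gave more Ucp1 and Cidea UMIs than the kept precursors. In the white library 854 removed cells held 6 UMIs of Ucp1 and 23 of Cidea, and 4332 kept precursors held 4 of each. In the brown library 872 removed cells held 14 UMIs of Ucp1 and 23 of Cidea, and 5962 kept precursors held 2 and 4. Most of these UMIs were in 1 cell per library, so neither count is spread over cells that could serve as a group. That these cells had mitochondrial shares above the limit was measured, and its cause was not tested.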

How the results depend on the processing

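No paired analysis was possible because each depot has 1 library. No left-out replicate could be tried either. None of 414 alternatives was counted as reversing a direction, and 347 left a value within its counting interval or a count within 1.5 times. A ratio near 0 could still change sign. Ppargc1b in bCAPs over bFAPLs had a log2 ratio of -0.03, and after thinning it was at 4.73 CPM in bCAPs against 1.79 CPM in bFAPLs. Of 40 shares of cells 30 moved past their interval, and 9 of 46 counts of genes moved by over 1.5 times. Of the 10 genes, 5 had over 3 UMIs in white precursors with the authors' labelled cells alone and also after thinning, against 8. The count of genes 2-fold higher in brown precursors fell from 1 to 0 in all captured cells, with every cell weighted the same, after thinning and without the upper mitochondrial limit, an alternative chosen after seeing the data, which also made the count of lower genes 1 in place of 0 (Cidea, log2 ratio -2.99, which rests on 1 white cell with 19 UMIs that enters again, while the brown cell with 21 stays out with 3136 genes). In bCAPs over bFAPLs 1 gene in place of 3 was higher after thinning, since the log2 ratio of Prdm16 was 0.58 and Ppargc1a, with 14 and 2 UMIs, was under the minimum of 20 while its log2 ratio stayed at 2.72, and in bCAPs over wCAPs 0 in place of 1 with labels carried over on 30 components. Depth limits Ucp1, Cidea, Elovl3, Dio2 and Irf4, each with 13 UMIs or fewer in either depot's precursors, for which a depot difference of 2-fold could not be seen.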
